A study of Mus musculus with 12 samples.

Results

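Pcdh19, Msc and Ms4a4d were followed through 4 populations of sorted mouse liver cells. They are 3 genes of the 53599 in the count table, and all 3 passed the filter on low counts, which 16210 genes passed. They were chosen on the values of BEC against full: of 1203 genes lower in BEC under the same rule (called lower, at least 10 CPM in the full group, no overlap of libraries), these had the 3 lowest log2 fold changes. Values of the full and BEC libraries are therefore given for them as a description with no test, and the 3 genes were tested only in intermediate against early, a pair of groups that the choice did not use.

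All 12 libraries came from mice labelled WT that had received AAV8-TBG-Cre and then, from 1 week later, a diet with 0.1% DDC for 8 weeks. TBG is a promoter active in hepatocytes, so EGFP marks cells that were hepatocytes at injection and their descendants, and DDC is a compound that injures bile ducts. Early cells were sorted as EGFP+ Cd24- Epcam-, intermediate cells as EGFP+ Cd24+ Epcam- and full cells as EGFP+ Cd24+ Epcam+. BEC were sorted as EGFP- Epcam+, that is, cells of the bile duct compartment without the hepatocyte mark, which also includes any hepatocyte descendant that escaped Cre. Each group had 3 libraries, and all groups shared the virus and the diet, so no group is an untreated liver. The labels give neither age nor sex, and do not say whether libraries came from separate mice, so p-values measure only the spread between these libraries. The transcripts of the sort markers followed the gates in part. Early and intermediate cells were both sorted as Epcam-, yet Epcam transcript was higher in intermediate, by a log2 fold change of 4.99. Cd24a had a mean of 3.20 CPM in early, 444 in intermediate, 1074 in full and 1073 in BEC, and Epcam of 0.592, 18.8, 254 and 866 CPM. CPM are counts scaled to 1 common library size after TMM factors were applied, and libraries held 15112893 to 19731887 counts.

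Pcdh19 encodes a protocadherin of the delta group, a single-pass membrane protein on the X chromosome that mediates calcium-dependent adhesion, acts together with N-cadherin, and is best known from an epilepsy of heterozygous females. Its cytoplasmic tail can engage the WAVE regulatory complex, which drives actin branching. Msc encodes musculin (also called MyoR), a basic helix-loop-helix (bHLH) factor that pairs with E proteins, binds E-boxes and acts as a repressor, first described as an inhibitor of muscle differentiation. Id proteins bind E proteins and keep them off DNA. Ms4a4d encodes a membrane protein with 4 membrane-spanning stretches, of the family that includes the B cell antigen CD20 (Ms4a1).

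The sequences just upstream of the start are shown for Pcdh19 and Ms4a4d, the genes for which a RefSeq promoter was found. Each run covers 250 bases, 5′ to 3′ on the gene's strand and ending at the base before the RefSeq start, in build GRCm38.p6. It lies at chrX:133688994-133689243 on the minus strand for Pcdh19 and at chr19:11536544-11536793 on the plus strand for Ms4a4d. Capitals mark matches, on either strand, to an E-box (CANNTG), where any base may stand at N, or to a TEAD motif (GGAATG). They also mark the letters of the CCAAT box and the GC box, the latter being GGGCGG. RefSeq promoters were matched by symbol for 2 of the 3 genes, Msc being the one without.
Pcdh19: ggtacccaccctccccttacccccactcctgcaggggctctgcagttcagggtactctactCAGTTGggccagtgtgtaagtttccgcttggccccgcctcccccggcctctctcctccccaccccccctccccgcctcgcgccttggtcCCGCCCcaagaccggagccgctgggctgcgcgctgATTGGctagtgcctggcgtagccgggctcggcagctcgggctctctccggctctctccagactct
Ms4a4d: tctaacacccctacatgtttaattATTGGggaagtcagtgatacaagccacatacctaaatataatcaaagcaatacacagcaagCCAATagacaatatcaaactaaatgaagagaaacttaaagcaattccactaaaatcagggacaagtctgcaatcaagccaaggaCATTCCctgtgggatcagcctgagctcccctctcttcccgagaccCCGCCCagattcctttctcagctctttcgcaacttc
The stretch before Pcdh19 is GC-rich, with 69.2% G or C and 16 CpG dinucleotides. That before Ms4a4d has 43.2% G or C and 3 CpG dinucleotides, against a median of 52.4% and 6 over 32851 RefSeq promoters cut to the same length. The CCAAT box (1 match before Pcdh19, 2 before Ms4a4d, none overlapping another motif searched) and the GC box (1 match each) were the motifs found in both, and 33.8% and 32.7% of all promoters hold them. An E-box occurred before Pcdh19 alone, at position -189 from the start (66.2% of all promoters), and the TEAD motif before Ms4a4d alone, at position -81 (12.6%). The AP-1 motif TGANTCA (6.75% of all promoters) and the TATA box TATAAA (12.4%) had no match in either.

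Pcdh19 was low in early cells, with 0.395, 0.364 and 0.728 CPM from 5, 4 and 9 counts. The intermediate libraries had 11.7, 15.1 and 18.4 CPM from 186, 276 and 325 counts. The full libraries had 24.5, 26.4 and 27.3 CPM from 576, 593 and 624 counts. BEC libraries were back at 0.578, 0.885 and 0.548 CPM from 12, 19 and 12 counts. Every full library lay above every intermediate one and every intermediate one above all early and BEC libraries, while early and BEC overlapped. From early (0.496 ± 0.202 CPM, SD, n = 3) to intermediate (15.1 ± 3.35 CPM, SD, n = 3) Pcdh19 rose by a log2 fold change of 4.90 (SE 0.28, edgeR's quasi-likelihood test with Benjamini-Hochberg adjustment, adjusted p = 1.19e-08), which is 30.4-fold on the means. As a description, full (26.1 ± 1.43 CPM, SD, n = 3) against intermediate had a log2 fold change of 0.79 (SE 0.18). BEC (0.671 ± 0.187 CPM, SD, n = 3) against full had -5.27 (SE 0.24), and BEC against early 0.42 (SE 0.39).

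Msc gave 0, 0 and 2 counts in the early libraries, the last being 0.162 CPM. At a floor of 3 counts, which is 0.128 to 0.273 CPM over the 12 libraries, it was not detectable in any early library. Intermediate libraries had 3.83, 1.64 and 1.36 CPM from 61, 30 and 24 counts, and full libraries 12.1, 11.6 and 10.9 CPM from 285, 261 and 249 counts. BEC libraries had 0.193, 0.373 and 0.366 CPM from 4, 8 and 8 counts. As for Pcdh19, full lay above intermediate and intermediate above early and BEC with no overlap between these 3 levels, and here every BEC library also lay above every early one. From early to intermediate (2.28 ± 1.35 CPM, SD, n = 3) Msc rose by a log2 fold change of 5.18 (SE 0.75, edgeR adjusted p = 4.92e-05). That size rests on 2 early counts against 115 intermediate ones: the ratio of summed rates was 39.9, with an exact 95% interval of 10.8 to 334 that covers counting error only. Both early counts came from replicate 3, and without that library the fitted change was 8.42 and no early count was left. As a description, full (11.6 ± 0.623 CPM, SD, n = 3) against intermediate had a log2 fold change of 2.35 (SE 0.36) and BEC against full -5.18 (SE 0.45). The ratio of summed rates was 208 for full against early (interval 57.4 to 1720) and 5.61 for BEC against early (interval 1.36 to 49.5, from 20 and 2 counts).

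Ms4a4d had 0.633, 1.0004 and 0.728 CPM in early cells, from 8, 11 and 9 counts. The intermediate libraries had 13.8, 16.3 and 15.2 CPM from 219, 298 and 268 counts. The full libraries had 14.3, 19.2 and 29.2 CPM from 337, 430 and 667 counts, and BEC 0.530, 0.652 and 0.822 CPM from 11, 14 and 18 counts. The lowest full library lay inside the intermediate range, and BEC overlapped early. From early (0.787 ± 0.191 CPM, SD, n = 3) to intermediate (15.1 ± 1.28 CPM, SD, n = 3) Ms4a4d rose by a log2 fold change of 4.26 (SE 0.31, edgeR adjusted p = 1.07e-07), 19.2-fold on the means. As a description, full (20.9 ± 7.56 CPM, SD, n = 3) against intermediate had a log2 fold change of 0.47 (SE 0.22), a difference of means smaller than the spread of the full libraries. Leaving out 1 library at a time gave 0.15, without full replicate 3, to 0.68, without full replicate 1. BEC (0.668 ± 0.147 CPM, SD, n = 3) against full had -4.95 (SE 0.29), and BEC against early -0.22 (SE 0.42). In these bulk samples, fewer cells with a transcript and less of it per cell cannot be told apart, for this gene and the others.

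**Figure D1:**
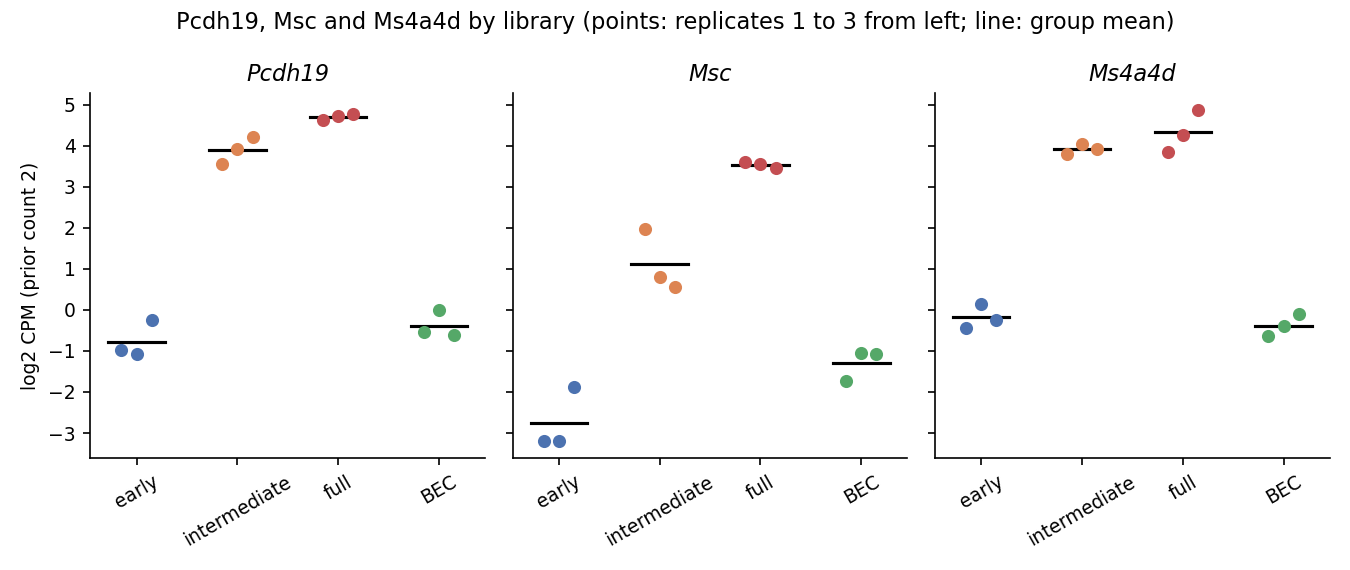
Level of Pcdh19, Msc and Ms4a4d in each of the 12 libraries, as log2 CPM with a prior count of 2 (vertical axis), by group (horizontal axis); points are libraries. Pcdh19 and Msc step up from intermediate to full, while the full libraries of Ms4a4d, at 14.3 to 29.2 CPM, reach into its intermediate range of 13.8 to 16.3 CPM.

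The name of full-stage genes thus fits the 3 genes in part. In intermediate against early, 28.7% of the genes tested were called higher and 25.7% lower, and all 3 genes were called higher. By log2 fold change Msc stood at place 283, Pcdh19 at 346 and Ms4a4d at 532 of 16210, where the median gene had 0.06. All 6 intermediate and full libraries exceeded all 6 early and BEC libraries for all 3 genes, a pattern that 2.82% of the genes tested had (457 genes). The 3 full libraries exceeded the other 9 for Pcdh19 and Msc but not for Ms4a4d, against 4.36% of the genes tested (707 genes). The full staircase, full above intermediate above both early and BEC, held for Pcdh19 and Msc and for 0.605% of the genes tested (98 genes). The choice of genes used the full and BEC libraries, so nothing is read from the last 3 shares. In BEC against full, the comparison that chose them, 10.6% of the genes were called lower and 10.7% higher. Ms4a4d, with -4.95, was the last of the 3 genes taken, and Vim, an intermediate filament gene, with -4.49, the first not taken.

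The genes that came next by the same rule differed among themselves before the full stage, and their full and BEC values, which placed them there, are given with no test. Vim already had 288 ± 44.5 CPM in intermediate against 245 ± 21.4 in full (SD, n = 3), and its early and BEC levels were 28.2 ± 2.14 and 10.9 ± 2.52 CPM. Olfml1 was highest in early cells, at 36.5 ± 4.58 CPM (SD, n = 3), and had 27.6 ± 4.62 CPM in intermediate, 13.2 ± 2.10 CPM in full cells and 0.589 ± 0.298 CPM in BEC. Vcan, which encodes the matrix proteoglycan versican, had 1.03 ± 0.583 CPM in early cells (SD, n = 3) and rose to 107 ± 23.5 in intermediate (log2 fold change 6.73, edgeR adjusted p = 4.87e-09). Its full libraries averaged 231 ± 36.5 CPM and its BEC libraries 10.6 ± 3.61 CPM. As for Pcdh19, full was highest and intermediate next. Vcan was higher in BEC than in early, groups that overlapped for Pcdh19.

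The 3 genes also differed in how closely replicate libraries agreed. In full cells the coefficient of variation was 5.47% for Pcdh19 and 5.39% for Msc but 36.2% for Ms4a4d, where replicate 3 had the highest value. In intermediate cells it was 59.4% for Msc, where replicate 1 had the highest value, 22.2% for Pcdh19 and 8.497% for Ms4a4d. Epcam transcript ran in the order of Msc over these libraries, at 26.7, 17.4 and 12.4 CPM in replicates 1 to 3. Pcdh19 ran in the opposite order there, and Ms4a4d in neither. The part of Epcam+ cells in the intermediate values was not tested. Per kilobase of exon (GENCODE M21 gene models), Ms4a4d had the highest level in full cells, at 13.8 ± 5.00 CPM per kb (SD, n = 3), then Msc at 4.54 ± 0.245 and Pcdh19 at 2.49 ± 0.136. In intermediate cells the order of the lower pair was the other way round, with Pcdh19 at 1.44 ± 0.320, Msc at 0.895 ± 0.532 and Ms4a4d at 9.97 ± 0.847 CPM per kb, and the ranges of Pcdh19 and Msc overlapped within 1 SD.

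How far reads can be assigned to each gene differed as well. Exons of Pcdh19 total 10464 bp, and 57 bp of them overlap Gm26851 on the other strand. Exons of Msc total 2546 bp, of which 539 bp, or 21.2%, overlap Gm9947 on the other strand. Of its 50-base stretches 19.0% also occur in transcripts of other genes, Gm9947 and Wdcp, and of its 100-base stretches 17.1%. No gene overlaps the 1513 bp of Ms4a4d exons, and 0.546% of its 50-base stretches also occur in another gene, the family member Ms4a4c. Whether counting used strand is not given in the sources used here, so reads of Msc and Gm9947 in the shared stretch may not be told apart, and both values are uncertain to that extent. Gm9947 itself had counts of 0, 0 and 0 in early, 13, 2 and 5 in intermediate, 25, 38 and 26 in full, and 0, 3 and 4 in BEC. Its counts were below those of Msc in each library with any count of either, and the part of shared reads in the Msc values was not tested.

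**Figure D2:**
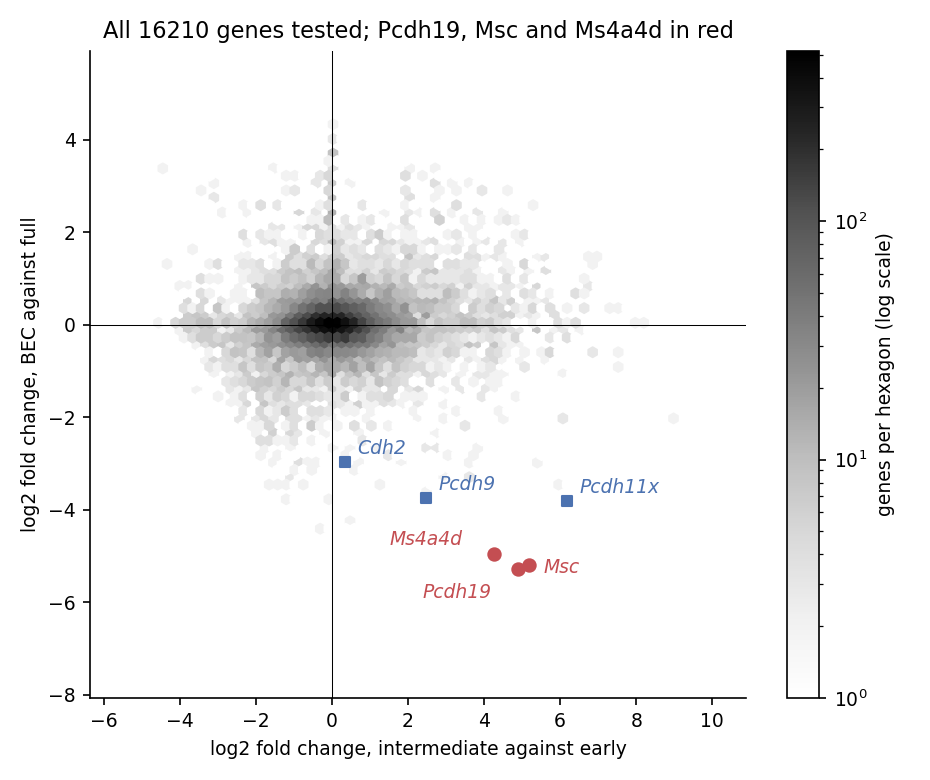
Fitted log2 fold change of BEC against full (vertical axis) against that of intermediate against early (horizontal axis) for the 16210 genes tested, as hexagons shaded by the number of genes on a log scale; the axes share no library. Pcdh19 (4.90 and -5.27), Msc (5.18 and -5.18) and Ms4a4d (4.26 and -4.95) are the red points, and 3 related genes, Pcdh11x, Pcdh9 and Cdh2, the blue squares.

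Among 10 other non-clustered protocadherins, 4 passed the filter. Pcdh11x, a delta protocadherin that is also X-linked, rose from early to intermediate and again to full, and fell in BEC. It had 0, 1 and 0 counts in early, 4.59, 2.03 and 0.962 CPM in intermediate, 15.2, 16.5 and 12.1 CPM in full and 0.626, 1.82 and 0.640 CPM in BEC, so the full libraries stood above all others and intermediate and BEC overlapped. Early to intermediate rested on 1 count against 127, with a ratio of summed rates of 88.2 (exact 95% interval 15.5 to 3511, edgeR adjusted p = 0.000261). The log2 fold change was 2.54 for full against intermediate (SE 0.46, edgeR adjusted p = 0.000551), a comparison in which 20.8% of all genes were called higher and 19.8% lower. For BEC against full it was -3.82 (SE 0.49, edgeR adjusted p = 7.81e-05).

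Pcdh9, another delta protocadherin, was at or under 4 counts in every early library and had 24, 5 and 4 counts in intermediate, 97, 93 and 59 in full and 4, 4 and 9 in BEC. It rose from intermediate to full (by 2.46 on the log2 scale, SE 0.65, edgeR adjusted p = 0.00838) and fell in BEC against full (-3.74, SE 0.71, edgeR adjusted p = 0.00169). Pcdh9 passed the filter on low counts only through its full libraries, so both calls are partly set by that filter. Intermediate against early did not pass edgeR's test (2.47, SE 1.06, adjusted p = 0.0640) but passed DESeq2's (adjusted p = 0.0252), and edgeR's with total counts only (3.09, adjusted p = 0.0159) or no filter on low counts (2.51, adjusted p = 0.00826). Among the fits that left out 1 library, it passed without early replicate 2, which held all 4 early counts (the fitted change was then 6.65, adjusted p = 0.0159), and without intermediate replicate 2 (0.0422) or intermediate replicate 3 (0.0329). Pcdh12, a protocadherin known from endothelium, fell from 3.43 ± 0.385 CPM in early to 0.909 ± 0.581 in intermediate (SD, n = 3; log2 fold change -1.90, edgeR adjusted p = 0.00247) and to at most 1 count in each full library (edgeR adjusted p = 0.000173). The 8 endothelial markers summed to 16.3 to 23.7 CPM in early, 8.93 to 20.9 in intermediate, 4.17 to 6.30 in full and 7.37 to 12.4 in BEC, with none at 0 in a whole group. Of the 7 tested, 1 was called higher and 1 lower in intermediate against early, and 0 higher and 3 lower in full against intermediate; their part in the fall of Pcdh12 was not tested. Pcdh1 fell from 199 ± 10.2 CPM in early to 117 ± 9.38 in intermediate (SD, n = 3; log2 fold change -0.77, edgeR adjusted p = 5.71e-06). That call was lost when only total counts scaled the libraries (-0.10, adjusted p = 0.298).

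In all, the protocadherin list had 1 gene higher and 2 lower of 4 in intermediate against early (median log2 fold change 0.85, all genes 0.06), 2 higher and 1 lower in full against intermediate (1.14, all genes 0.01), and 0 higher and 2 lower in BEC against full (-1.80, all genes 0.00). Over all genes tested the shares called higher and lower were 28.7% and 25.7%, 20.8% and 19.8%, and 10.7% and 10.6% in these 3 comparisons. The 6 protocadherins that did not pass the filter, Pcdh7, Pcdh8, Pcdh10, Pcdh17, Pcdh18 and Pcdh20, had at most 11 counts in any library. The genes of this list called lower in BEC against full were Pcdh11x and Pcdh9, of which Pcdh9 had passed the filter only through its full libraries.

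Cdh2, which encodes N-cadherin, the adhesion partner of Pcdh19, differed from it in the EGFP+ groups. Cdh2 already had 175 ± 16.1 CPM in early cells, then 223 ± 10.7 in intermediate and 259 ± 8.70 in full (SD, n = 3). It fell to 33.0 ± 6.52 CPM in BEC (log2 fold change against full -2.97, SE 0.13, edgeR adjusted p = 1.11e-08), below every EGFP+ library. Its rise from early to intermediate was small (0.35, SE 0.12, edgeR adjusted p = 0.0295) and did not hold under DESeq2 (adjusted p = 0.0530), under median-of-ratios scaling (0.0632), or without early replicate 2 (0.112), early replicate 3 (0.0589), intermediate replicate 1 (0.0731) or intermediate replicate 3 (0.0708). Full against intermediate did not pass (0.22, edgeR adjusted p = 0.180), but did in a fit on those 6 libraries alone (0.22, adjusted p = 0.0315) and with total counts only (0.42, adjusted p = 0.0127).

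Of the WAVE complex genes listed with it, Cyfip2, a subunit that binds the small GTPase Rac, moved most. It had at most 3 counts in early, then 2.01, 0.822 and 0.283 CPM in intermediate, 17.6, 17.7 and 11.98 in full and 59.8, 48.4 and 53.5 in BEC, so unlike Pcdh19 it was highest in BEC. The log2 fold changes were 3.11 (edgeR adjusted p = 0.00931), 3.95 (edgeR adjusted p = 2.23e-06) and 1.77 (edgeR adjusted p = 0.000344) along that sequence. Of the other subunits, Wasf2, a core actin regulator of the complex, rose by a log2 fold change of 0.90 (edgeR adjusted p = 5.58e-07) and Abi2, an adaptor subunit, by 0.67 (edgeR adjusted p = 0.00631) from early to intermediate. Abi2 rose again in full (0.61, edgeR adjusted p = 0.0105), a call lost without intermediate replicate 2 (adjusted p = 0.0594). Abi1, its relative, rose in BEC against full (0.34, edgeR adjusted p = 0.00262), a call lost with no filter on low counts (adjusted p = 0.0790). Of the 10 genes tested in the list of 12, 4 were higher and 0 lower in intermediate against early (median 0.15; with total counts only, Cyfip1, Nckap1, Abi1, Wasf1 and Brk1 were called higher too, by 0.53 to 0.87), 3 higher and 1 lower in full against intermediate (median 0.12), and 2 higher and 1 lower in BEC against full (median 0.03). Against 28.7%, 20.8% and 10.7% of all genes called higher and 25.7%, 19.8% and 10.6% called lower, the counts of higher genes lay near the background. In full against intermediate the calls of Wasf2 (0.21) and Brk1 (-0.22) were near the threshold, at edgeR adjusted p = 0.0416 and adjusted p = 0.0472, and each was lost in 9 of the 12 fits that left out 1 library. No filter on low counts also ended both (adjusted p = 0.207 and 0.282). The Brk1 call was lost too under DESeq2 (0.0832), median-of-ratios scaling (0.0990), total counts only (0.883) and a filter at a mean of 50 counts (0.0518). With total counts only, Abi1 was called higher there (0.24, adjusted p = 0.0148).

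Msc is one of a branch of bHLH factors, and 4 of 11 listed relatives passed the filter. Tcf24, at 7.51 ± 2.71 CPM in early cells (SD, n = 3), rose to 24.4 ± 7.17 in intermediate and 46.9 ± 4.23 in full. Its log2 fold changes were 1.69 (edgeR adjusted p = 3.54e-05) and 0.95 (edgeR adjusted p = 0.00240). In BEC it had 33.4 ± 3.21 CPM (log2 fold change against full -0.49, edgeR adjusted p = 0.115), a difference that passed with the replicate number as a block (adjusted p = 0.0142). It also passed in the fit on those 6 libraries (adjusted p = 0.00489), with no filter on low counts (adjusted p = 0.00987), and without early replicate 1 (adjusted p = 0.0439) or intermediate replicate 1 (adjusted p = 0.0476). Scx, which encodes scleraxis, a factor of tendon progenitors, did not pass from early (0.336 ± 0.245 CPM, SD, n = 3) to intermediate (log2 fold change 1.15, edgeR adjusted p = 0.0699). It did with total counts only (adjusted p = 0.00565), with no filter (0.0434), and without early replicate 3 (0.0284) or full replicate 3 (0.0481). Scx rose from 0.749 ± 0.142 CPM in intermediate to 5.18 ± 1.36 in full and 20.7 ± 2.65 in BEC (SD, n = 3), with log2 fold changes of 2.78 (edgeR adjusted p = 1.21e-05) and 1.999 (edgeR adjusted p = 5.17e-05). Tcf21, a factor of mesenchymal progenitors, fell from early to intermediate at very low counts (at most 13 in any early library, log2 fold change -2.27, edgeR adjusted p = 0.0158). Leaving out early replicate 2 (adjusted p = 0.0517), early replicate 3 (0.0531) or intermediate replicate 2 (0.0696) ended that call, as did scaling by total counts only (0.0602). The list gave 1 higher and 1 lower in intermediate against early (median 0.20), 2 higher and 0 lower in full against intermediate (median 0.76), and 1 higher and 0 lower in BEC against full (median 0.61). The background was 28.7% higher and 25.7% lower, 20.8% and 19.8%, and 10.7% and 10.6%. With 4 genes tested almost any count would lie near it, so nothing is read from these counts.

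From early to intermediate, 3 of the 7 genes for E proteins, with which Msc pairs, and Id proteins, which sequester them, were higher and 3 lower (median -0.38), beside 28.7% and 25.7% of all genes. All E protein genes listed rose, Tcf3 by a log2 fold change of 0.93 (edgeR adjusted p = 1.42e-06), Tcf12 by 0.91 (edgeR adjusted p = 3.17e-06) and Tcf4 by 0.81 (edgeR adjusted p = 0.000201). These E proteins were singled out after their values were seen. Of the Id genes, Id4 fell by 2.82 (edgeR adjusted p = 0.00314), Id3 by 1.10 (edgeR adjusted p = 5.71e-05) and Id1 by 0.95 (edgeR adjusted p = 0.00290) on the log2 scale. With total counts only, the call of Id1 was lost (-0.29, adjusted p = 0.278). Id2 missed the threshold (-0.38, edgeR adjusted p = 0.106) but passed once the replicate block was added (-0.41, adjusted p = 0.0300).

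In full against intermediate 2 genes of this list were higher and 2 lower (median 0.19), beside 20.8% and 19.8% of all genes, with Id4 at -2.65 (edgeR adjusted p = 0.0429), Id3 at -0.70 (edgeR adjusted p = 0.00338) and Tcf12 at 0.33 (edgeR adjusted p = 0.0128). The Id4 call was lost in 8 of the 12 fits that left out 1 library and with total counts only (adjusted p = 0.0560). The Tcf12 call was lost without intermediate replicate 1 (adjusted p = 0.0512). The other gene called higher was Tcf3 (0.27, edgeR adjusted p = 0.0268), a call lost with no filter on low counts (0.0887) and without intermediate replicate 3 (0.129) or full replicate 1 (0.131). Id2 was not called (0.37, edgeR adjusted p = 0.134), except with total counts only (0.0252) or no filter (0.0277). In BEC against full 1 was higher and 1 lower (median -0.03), beside 10.7% and 10.6% of all genes: Id1 rose by 1.31 (SE 0.22, edgeR adjusted p = 0.000768) and Tcf4 fell by 0.64 (SE 0.13, edgeR adjusted p = 0.00280). The 4 myogenic bHLH genes Myod1, Myf5, Myf6 and Myog, whose action Msc is known to inhibit in muscle, had 0 counts in all 12 libraries, at a floor of 3 counts per library.

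Most relatives of Ms4a4d had low counts or none. Of 22 listed relatives, 3 passed the filter, and the 19 that did not had at most 10 counts in any library, 8 of them none at all. Its nearest paralogs by name, singled out here after their values were seen, had at most 10 counts (Ms4a4b), 3 counts (Ms4a4c) and 2 counts (Ms4a4a) in any library. Ms4a6b, the gene next to Ms4a4d, had 0.712, 0.546 and 0.162 CPM in early, 0.880, 0.822 and 1.25 in intermediate, 1.19, 1.20 and 1.36 in full and 0.0963, 0.280 and 0.137 in BEC. BEC against full fell by 2.82 on the log2 scale (SE 0.51, edgeR adjusted p = 0.00106), while intermediate against early did not pass (1.05, SE 0.49, adjusted p = 0.0901) except with total counts only (1.70, adjusted p = 0.00682). Its counts were low, at most 31 in any library.

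The more distant relatives Tmem176a and Tmem176b were both called lower in full against intermediate. Tmem176a fell from early to intermediate (-0.65, edgeR adjusted p = 0.000120), with a value of 0.00993 with total counts only, and from intermediate to full (-0.48, edgeR adjusted p = 0.00215). Tmem176b fell from intermediate to full (-0.68, edgeR adjusted p = 0.000141); its early to intermediate value of -0.11 did not pass, and with total counts only it was 0.55 and called higher (adjusted p = 0.000170). The list had 0 higher and 1 lower of 3 in intermediate against early (median -0.11), 0 and 2 in full against intermediate (median -0.48), and 0 and 1 in BEC against full (median -0.15). Of all genes, 25.7%, 19.8% and 10.6% were called lower in these comparisons and 28.7%, 20.8% and 10.7% higher.

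**Figure D3:**
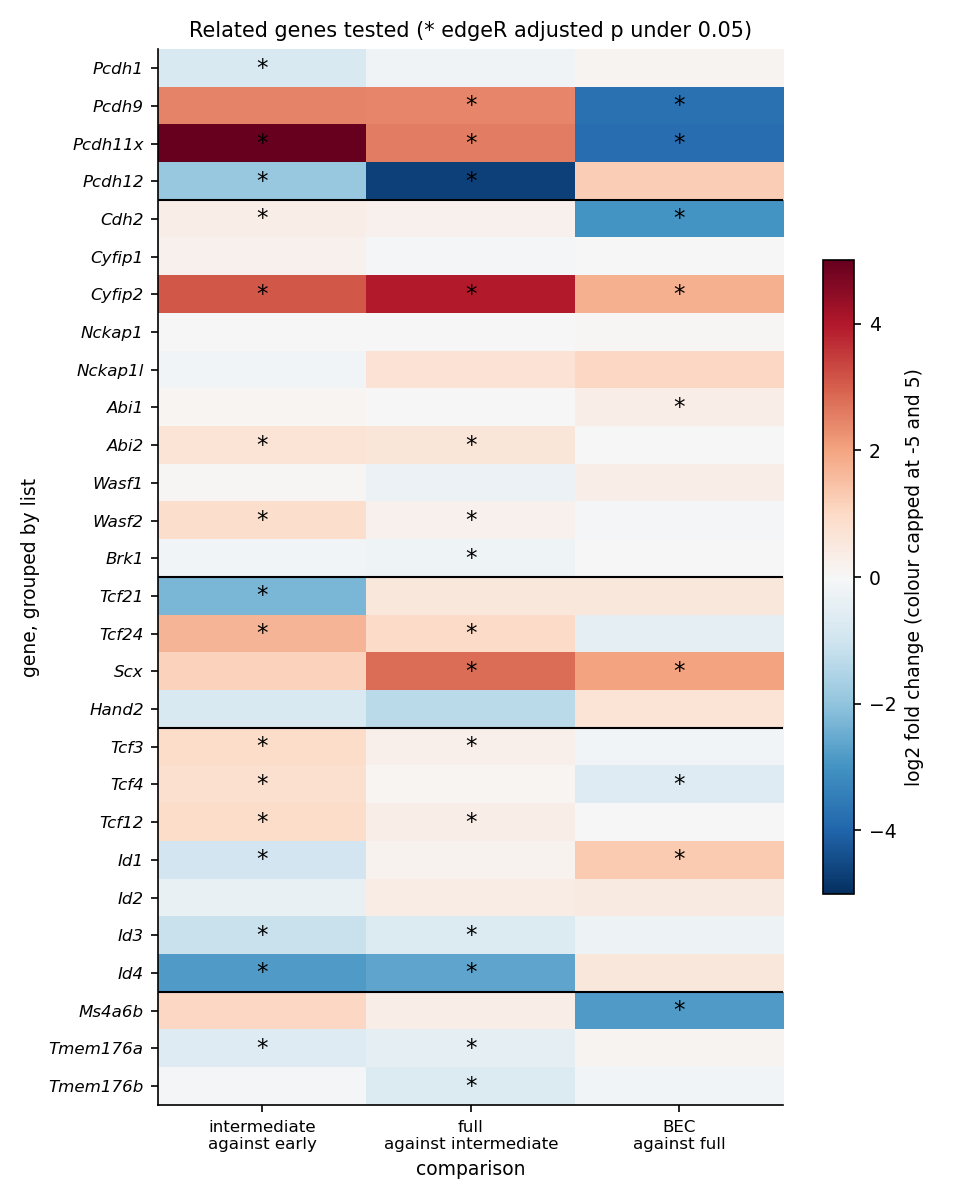
Fitted log2 fold changes of the related genes that passed the filter (rows, grouped by list) in the 3 comparisons (columns), as colour from blue for lower to red for higher, capped at 5 in either direction; asterisks mark an edgeR adjusted p under 0.05. Pcdh11x and Pcdh9 are red in full against intermediate (2.54 and 2.46) and blue in BEC against full (-3.82 and -3.74), whereas Scx and Cyfip2 are red in both (2.78 and 1.999, 3.95 and 1.77).

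By RefSeq gene order, the 3 nearest genes tested on each side of each of the 3 genes were also examined. Most were not adjacent. Gm9947 and Ms4a6b had 0 genes between them and Msc or Ms4a4d, and the others from 2 (Tspan6) to 68 (Nap1l3). Cldn34c1 and Ms4a6b had all 6 intermediate and full libraries above all 6 early and BEC ones, as 2.82% of the genes tested did. The other neighbours did not. Of those near Pcdh19, Tspan6, a tetraspanin gene, rose with it from early to intermediate (by 4.92 on the log2 scale, SE 0.31, edgeR adjusted p = 2.52e-08) and on to full (1.16, edgeR adjusted p = 0.000147), reaching 17.3 ± 0.460 CPM (SD, n = 3). Unlike Pcdh19 it stayed at 13.3 ± 1.08 CPM in BEC (-0.38, SE 0.17, edgeR adjusted p = 0.150). Cldn34c1, on the other side, rose from early to intermediate (1.62, edgeR adjusted p = 0.000110) and fell in BEC against full (-1.21, edgeR adjusted p = 0.00144). Nap1l3 fell in BEC against full (-1.21, edgeR adjusted p = 0.00152), and Diaph2, Sytl4 and Cstf2 were not called in any of the 3 comparisons.

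Next to Msc, its overlapping partner Gm9947 rose from early to intermediate (edgeR adjusted p = 0.0142, against 0 early counts) and fell in BEC (-3.50, edgeR adjusted p = 0.00616). Kcnb2, a potassium channel gene, fell from 2.67 ± 0.694 CPM in intermediate to 0.468 ± 0.252 in full (SD, n = 3; edgeR adjusted p = 0.000572) and had 0, 0 and 1 counts in BEC, so it shared the low BEC level of Msc but not its rise. Xkr9 and Lactb2 fell both from early to intermediate (-1.41 and -1.34) and from intermediate to full (-1.58 and -0.99), and Xkr9 fell again in BEC against full (-1.43, edgeR adjusted p = 8.12e-05). Tram1 (-0.65) and Terf1 (-0.41) fell from early to intermediate. Around Ms4a4d and Ms4a6b, 3 genes, Ccdc86 (-0.66), AW112010 (-1.59) and Mrpl16 (-0.83), fell from early to intermediate, and Stx3 and Patl1 were not called in any of the 3 comparisons.

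Profiles over the 12 libraries were compared as the root mean square difference of centred log2 CPM, a measure in which the full and BEC values that chose the 3 genes also enter. Pcdh19 and Ms4a4d were each other's nearest gene of 16209, at 0.512 log2 units. Msc was the fifth nearest to Pcdh19, at 0.885, and Msc and Ms4a4d were at 1.09. Both Pcdh19 and Ms4a4d had Vstm2b (0.580 and 0.546) and Trim71, which encodes an RNA-binding protein of early development (0.859 and 0.707), among their nearest 5. Zfp57, a zinc finger gene that maintains imprints, was at 0.861 from Pcdh19, while Vim (0.629) and the protease gene Adamts14 (0.742) were near Ms4a4d.

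The nearest genes of Msc were others: Satb1, a chromatin organiser (0.644), Csmd1 (0.705), A2m (0.738), Gm42517 (0.739) and Zeb2, a repressor known from epithelial-mesenchymal transition (0.781). Zeb2 had a mean of 1.28 CPM in early, 9.70 in intermediate, 29.4 in full and 3.07 in BEC. Satb1 had 0.0270, 1.24, 3.86 and 0.171 CPM, and Csmd1 0.0270, 1.13, 7.95 and 0.651 CPM, in the same order. Vstm2b had 0.0573, 3.72, 4.33 and 0.185 CPM, in that order too. Of the nearest 5 of each gene, between 2 and 3 stayed when group means replaced libraries or a prior count of 0.5 was used, so the order among them is loose.

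**Figure D4:**
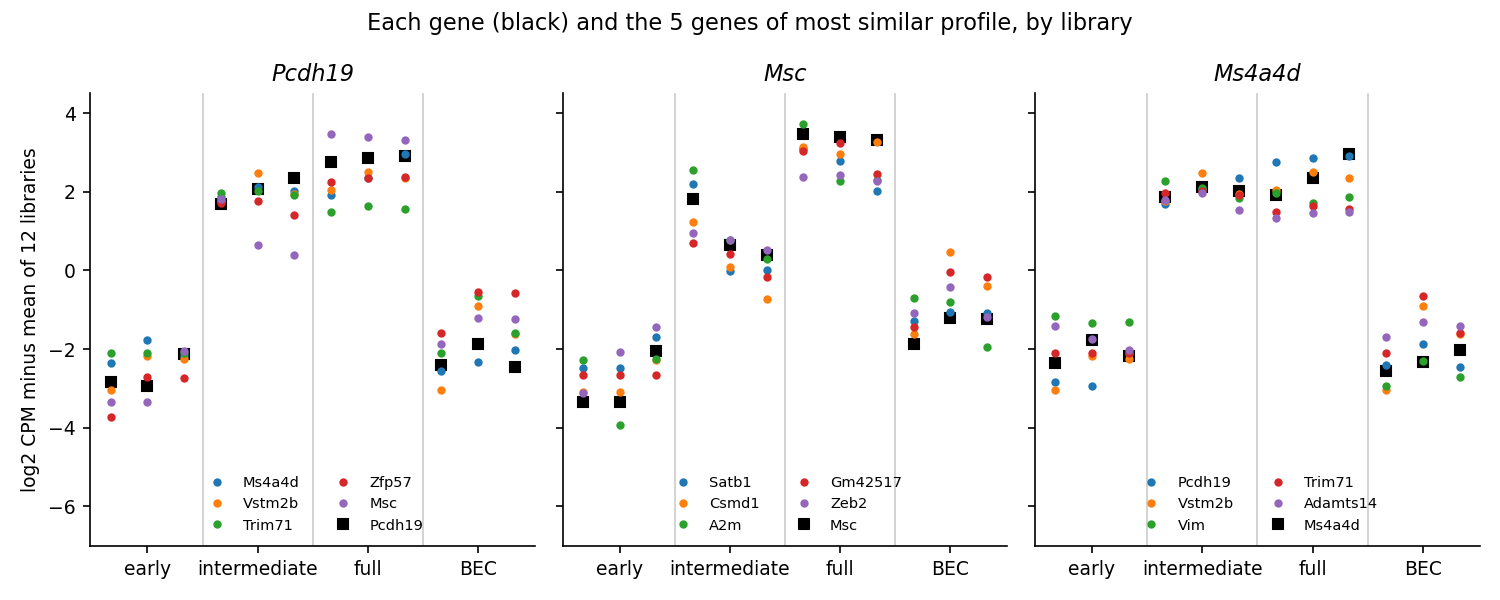
Centred log2 CPM of Pcdh19, Msc and Ms4a4d (black squares) and of the 5 genes of most similar profile for each (coloured points), by library within group. The genes nearest Msc, such as Zeb2 at 9.70 and 29.4 CPM, have a higher mean in full than in intermediate, whereas Vim, near Ms4a4d, has 288 and 245 CPM.

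Markers of other cells were set beside these values. Hepatocyte markers summed to 95999 to 100539 CPM in early libraries, 15058 to 19657 in intermediate, 3255 to 4288 in full and 1977 to 2617 in BEC. Biliary markers summed to 984 to 1924, 9327 to 12199, 11736 to 14941 and 14408 to 17568 CPM in that order. In intermediate against early all 8 hepatocyte markers were called lower and all 8 biliary markers higher, beside 25.7% and 28.7% of all genes. Of 10 lists for cells other than these, 0 had all 6 intermediate and full libraries above all 6 early and BEC libraries, a pattern that 2.82% of the genes tested had. Likewise 0 had all full libraries above all BEC ones. The rule that chose the 3 genes fixed that order for them, so nothing is read from these counts. From early to intermediate the summed level of 2 lists was higher with no overlap. The 8 macrophage markers summed to 23.4 to 25.3 CPM in early, 30.05 to 36.1 in intermediate, 65.3 to 90.5 in full and 132 to 153 in BEC, with none at 0 in a whole group. Of the 7 tested, Csf1r was called higher in intermediate against early, with means of 3.94, 24.6, 67.8 and 127 CPM over the 4 groups, and Cd68 was called lower (log2 fold change -2.35, edgeR adjusted p = 7.96e-06), with means of 14.0, 2.74, 1.62 and 3.46 CPM. The 6 mast cell markers summed to 0.316 to 0.890 CPM in early and 2.72 to 5.28 in intermediate, all of the latter from Kit, with the other 5 at 0 in intermediate. The 5 smooth muscle markers summed to 1.27 to 2.36 CPM in early, 1.26 to 3.11 in intermediate, 0.936 to 2.19 in full and 1.16 to 2.10 in BEC, with Myocd at 0 in the first 3 groups. Cnn1, the 1 of them tested, was called higher in intermediate against early (3.05, edgeR adjusted p = 0.0123), with means of 0.118, 0.972, 1.04 and 0.680 CPM over the 4 groups. The part of macrophages, mast cells or smooth muscle in the rise of the 3 genes from early to intermediate was not tested. Stellate cell and fibroblast markers summed to 70.8 to 232 CPM in early, 36.7 to 135 in intermediate, 30.01 to 56.2 in full and 59.1 to 101 in BEC, ranges that overlapped between intermediate and each of the other groups. The 7 mesothelial markers summed to 3.56 to 7.18 CPM in early, 2.58 to 3.73 in intermediate, 30.002 to 45.3 in full and 225 to 249 in BEC, so they were higher in full than in intermediate, as Pcdh19 and Msc were, and higher still in BEC, where the 3 genes were low. Msln, Gpm6a and Wt1 were the 3 of 5 tested that were called higher in full against intermediate, and the first 2 were called higher again in BEC. The other 2 did not pass there, with log2 fold changes of 0.32 for Upk3b and -1.43 for Lrrn4. From early to intermediate Lrrn4 was called lower (-2.24, edgeR adjusted p = 0.00865) and Gpm6a higher (1.75, edgeR adjusted p = 0.0107). Wt1 had a mean of 1.35 CPM in full and 0.470 in BEC. Muc16 was at or under 3 counts in every early, intermediate and full library. The part of such cells in the intermediate and full values was not tested. Mitochondrial transcripts made up 5.45 to 11.4% of counts in early libraries, 3.99 to 4.75% in intermediate, 2.20 to 2.48% in full and 2.58 to 3.43% in BEC. The share was thus higher in every early than in every intermediate library, and its part in the rise of the 3 genes was not tested.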

How the data were processed

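Total RNA of sorted liver cells was sequenced in 12 libraries, 3 in each of 4 groups taken from the sample titles. The authors deposited raw counts per gene symbol, made with STAR 2.7.10b, featureCounts 2.0.1 and build GRCm39, per the submitters' processing notes. Annotation and strand setting are not given in the sources used here. The authors also deposited a signal table, found on checking to be the counts divided by 1 size factor per library and not used for tests. The notes name DESeq2. Of the count table, 0 rows lacked a gene name and 0 columns lacked a sample.

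The groups were fitted jointly over the 12 libraries (R 4.3.3, edgeR 4.0.16, limma 3.58.1): TMM scaling, filterByExpr by group (over 99% of counts kept), the quasi-likelihood test and Benjamini-Hochberg adjustment over the 16210 genes tested, with calls under 0.05. The scripts were tested on simulated data. Common biological variation was 14.8%. Log2 CPM used a prior count of 2; floors and intervals cover counting error only, since PCR reads are not independent molecules. Alternatives were DESeq2 1.42.0, other scalings and filters, a fit on 6 libraries, a replicate block and leaving out each library. Same-numbered libraries deviated together: the correlation of their deviations from the group means was 0.121 to 0.293 for intermediate against early, 0.137 to 0.322 for full against intermediate and 0.170 to 0.257 for BEC against full. The numbers come from the titles, which do not say what they mark. The authors' library names run through all 4 groups of a number before the next number begins. What such a set shares is not given, and the main test was unpaired.

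The 3 genes and all lists were chosen with earlier results of these data known. Named besides the 3 were the called genes of each list (the 3 largest changes where more than 3 were called), 3 tested neighbours on each side, the 5 genes of nearest profile and the next 3 genes of the rule. Gene order and promoters came from RefSeq (GRCm38.p6) and exon lengths from GENCODE M21, older builds than that of the counts, so counted exons may differ.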

Additional observations from a re-analysis of the deposited data

How the results depend on the processing

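The rise of all 3 genes from early to intermediate was called in each of 19 alternatives, with a log2 fold change of 4.73 to 5.55 for Pcdh19 (largest adjusted p = 4.64e-06), 4.61 to 8.42 for Msc (largest adjusted p = 0.00119) and 4.13 to 4.92 for Ms4a4d (largest adjusted p = 2.06e-06), by edgeR or DESeq2. Total counts alone in place of TMM moved the median of all genes from 0.06 to 0.72 in that comparison, from 0.01 to 0.21 in full against intermediate and from 0.00 to 0.01 in BEC against full, and the share of calls that were higher from 52.8% to 85.6%, from 51.2% to 72.6% and from 50.1% to 50.3%. With that scaling full against early was 6.54 for Pcdh19, 8.32 for Msc and 5.59 for Ms4a4d, and BEC against early was 1.27, 3.13 and 0.64, so the sign of Ms4a4d in BEC against early turned from -0.22 (SE 0.42). Leaving out 1 library at a time gave 6.97 to 10.8 for Msc in full against early and 1.79 to 5.59 in BEC against early, the highest without early replicate 3. For BEC against early, Msc had 18 alternatives, since the fit on the 6 libraries of those groups gave no value for it. With the replicate block, intermediate against early was 4.89 for Pcdh19, 5.15 for Msc and 4.28 for Ms4a4d; among the related genes the block also added the calls of Cyfip1 (adjusted p = 0.0437) in intermediate against early and of Id2 in BEC against full (adjusted p = 0.0394), and beside those named with their values it changed no other call of these lists. Low early counts limit the size of the changes of Msc, Pcdh11x and Pcdh9, among others.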
